A study of Mus musculus with 9 samples.

Results

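Genes A2ml1, Cib3, Srrm4, Akr1c19, Dhrs1, Trappc4, Retreg2 and Svip were examined in the livers of old mice given a hairpin RNA against Fabp4, of old control mice and of young mice. They are 8 of the 54532 genes in the deposited count table, and all 8 were among the 14025 genes that passed the filter on low counts. They were chosen by their counts, because the 3 libraries labelled Fabp4 shRNA stand apart from the 3 old control libraries. Differences between the 2 old groups are therefore given as a description, with no test, and the question put to the data was on which side the young livers lie.

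Liver RNA from 9 wild-type C57BL/6 mice was sequenced, with 3 mice in each group. Both old groups were male and received adeno-associated virus 9, a gene delivery vector, at 14 months of age, through the tail vein and directly into subcutaneous white fat, and were 20 months old at sampling. In one the virus encoded a short hairpin RNA against Fabp4 (AAV9-shRNA-Fabp4), and in the other a negative control hairpin (AAV9-shRNA-Neg). Young mice were 8 weeks old, and the labels give neither their sex nor an injection. Age, injection and any difference in sex therefore cannot be told apart in any comparison with young liver. The labels do not give the promoter that drives the hairpin, and their extraction text names NRVMs rather than liver. Fabp4 encodes a fatty acid carrier of fat cells and macrophages.

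Libraries held 14243344 to 17125440 counts. All 9 hepatocyte markers found in the table were detected in each group, and together they made up 73077 to 95886 CPM (counts scaled to library size) in libraries labelled Fabp4 shRNA, 91140 to 142300 CPM in old control and 109606 to 172127 CPM in young liver. Fabp4 itself was 11.2, 3.80 and 7.56 CPM in replicates 1, 3 and 6 of libraries labelled Fabp4 shRNA, against 7.19, 13.6 and 10.8 CPM in old control replicates 1, 2 and 5. These ranges overlap and replicate 1 goes against its label, so a direction below is a difference between labelled groups. One young column carries a number that no young label has and is called the unnumbered young library. It held 1103 CPM of the skeletal muscle actin Acta1, against at most 41.2 CPM in the other libraries, and its count and FPKM columns (fragments scaled to gene length and library) hold different values. Young values are therefore also given from whole reads recovered from that FPKM column. The labels do not say whether both columns hold reads of the same liver. The unnumbered young liver below therefore stands for whichever column is named.

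The genes belong to unrelated families. A2ml1 is a member of the alpha-2-macroglobulin family, whose proteins trap proteases that cut them. Cib3 is a calcium-binding protein with EF-hands, studied mainly in hair cells of the mouse inner ear, and Srrm4 is a splicing factor that promotes inclusion of microexons in neurons. Akr1c19 is an aldo-keto reductase of the mouse Akr1c cluster, and Dhrs1 a short-chain dehydrogenase/reductase. The other 3 act on membranes and proteins of the secretory pathway. Trappc4 is a core subunit of TRAPP, the complex that activates Rab1 for traffic from the endoplasmic reticulum (ER) to the Golgi. Retreg2 is a reticulon-like ER membrane protein linked to ER-phagy, the turnover of ER by autophagy. Svip is a small inhibitor of ER-associated degradation (ERAD) that binds the ATPase VCP.

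All 8 genes lie on different chromosomes in GRCm38, with positions from GENCODE mouse release 21. A2ml1 (ENSMUSG00000047228) spans chromosome 6, 128539821 to 128581608, Cib3 (ENSMUSG00000074240) chromosome 8, 72204335 to 72212837, and Srrm4 (ENSMUSG00000063919) chromosome 5, 116439275 to 116591817. Akr1c19 (ENSMUSG00000071551) spans chromosome 13, 4228700 to 4252843, and Dhrs1 (ENSMUSG00000002332) chromosome 14, 55739020 to 55745690. Trappc4 (ENSMUSG00000032112) spans chromosome 9, 44403698 to 44407600, Retreg2 (ENSMUSG00000049339) chromosome 1, 75142778 to 75147913, and Svip (ENSMUSG00000074093) chromosome 7, 51997171 to 52006018.

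RefSeq promoter windows on GRCm38.p6, from 250 bases before to 50 bases after each annotated start, were found for 7 of the 8 genes, Trappc4 being without one. Windows are shown for A2ml1 and Cib3, which were lower in libraries labelled Fabp4 shRNA, and for Dhrs1 and Retreg2, which were higher and begin beside a gene on the other strand. They lie at chr6:128581557-128581856 (A2ml1, minus strand), chr8:72212788-72213087 (Cib3, minus strand), chr14:55745635-55745934 (Dhrs1, minus strand) and chr1:75142536-75142835 (Retreg2, plus strand). Each runs 5′ to 3′ along its gene, and capitals mark matches to 1 of 7 motifs searched on both strands.
A2ml1: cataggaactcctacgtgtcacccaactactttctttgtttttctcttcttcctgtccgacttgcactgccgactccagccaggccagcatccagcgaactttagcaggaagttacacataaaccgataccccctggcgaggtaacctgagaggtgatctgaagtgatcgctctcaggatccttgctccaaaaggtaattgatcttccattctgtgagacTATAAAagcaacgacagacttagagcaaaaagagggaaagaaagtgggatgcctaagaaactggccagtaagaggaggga
Cib3: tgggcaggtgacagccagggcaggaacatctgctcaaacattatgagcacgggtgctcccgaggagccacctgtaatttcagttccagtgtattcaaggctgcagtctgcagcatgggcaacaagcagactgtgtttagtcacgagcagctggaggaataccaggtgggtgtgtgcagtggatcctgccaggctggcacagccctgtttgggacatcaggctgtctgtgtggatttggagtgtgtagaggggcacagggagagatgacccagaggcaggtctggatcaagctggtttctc
Dhrs1: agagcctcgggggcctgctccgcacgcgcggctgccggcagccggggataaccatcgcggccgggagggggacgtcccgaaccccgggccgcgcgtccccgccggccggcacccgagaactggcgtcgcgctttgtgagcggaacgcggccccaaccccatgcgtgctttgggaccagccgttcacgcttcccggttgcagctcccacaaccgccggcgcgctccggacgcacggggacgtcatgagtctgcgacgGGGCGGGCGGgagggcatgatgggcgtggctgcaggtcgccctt
Retreg2: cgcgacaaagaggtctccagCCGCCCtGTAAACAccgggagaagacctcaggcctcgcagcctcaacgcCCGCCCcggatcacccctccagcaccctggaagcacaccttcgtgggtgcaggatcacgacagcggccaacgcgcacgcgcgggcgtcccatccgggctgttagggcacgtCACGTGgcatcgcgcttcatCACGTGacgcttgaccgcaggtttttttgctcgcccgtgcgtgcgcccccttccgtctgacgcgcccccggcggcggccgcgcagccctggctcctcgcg

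The windows differ in base composition. G and C made up 47.7% of the bases for A2ml1 and 55.7% for Cib3, either side of the median of 52.7% over all 32851 windows, and 40.3% for Akr1c19. They made up 74.3% for Dhrs1, 69.3% for Retreg2 and 64.3% for Srrm4, and 71.7% and 63.7% in both windows of Svip. The TATA box letters TATAAA occurred for A2ml1 alone, 30 bases before the start, and in 13.6% of all windows. The GC box letters GGGCGG occurred for Dhrs1, Retreg2 and Svip and in 35.7% of all windows, with both matches of Dhrs1 overlapping each other. The E-box letters CACGTG stood at 70 and 50 bases before the start of Retreg2 and in 7.15% of all windows. The forkhead letters TGTTTAC matched the other strand of Retreg2, overlapping no other motif (3.65% of windows), and the nuclear receptor half-site AGGTCA matched Svip (16.3%). The D-box TTATGTAA (0.938% of windows) and the AP-1 letters TGACTCA (5.20%) matched 0 of the 7 genes. These matches are letters in a window and were not tested for binding.

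**Figure D1:**
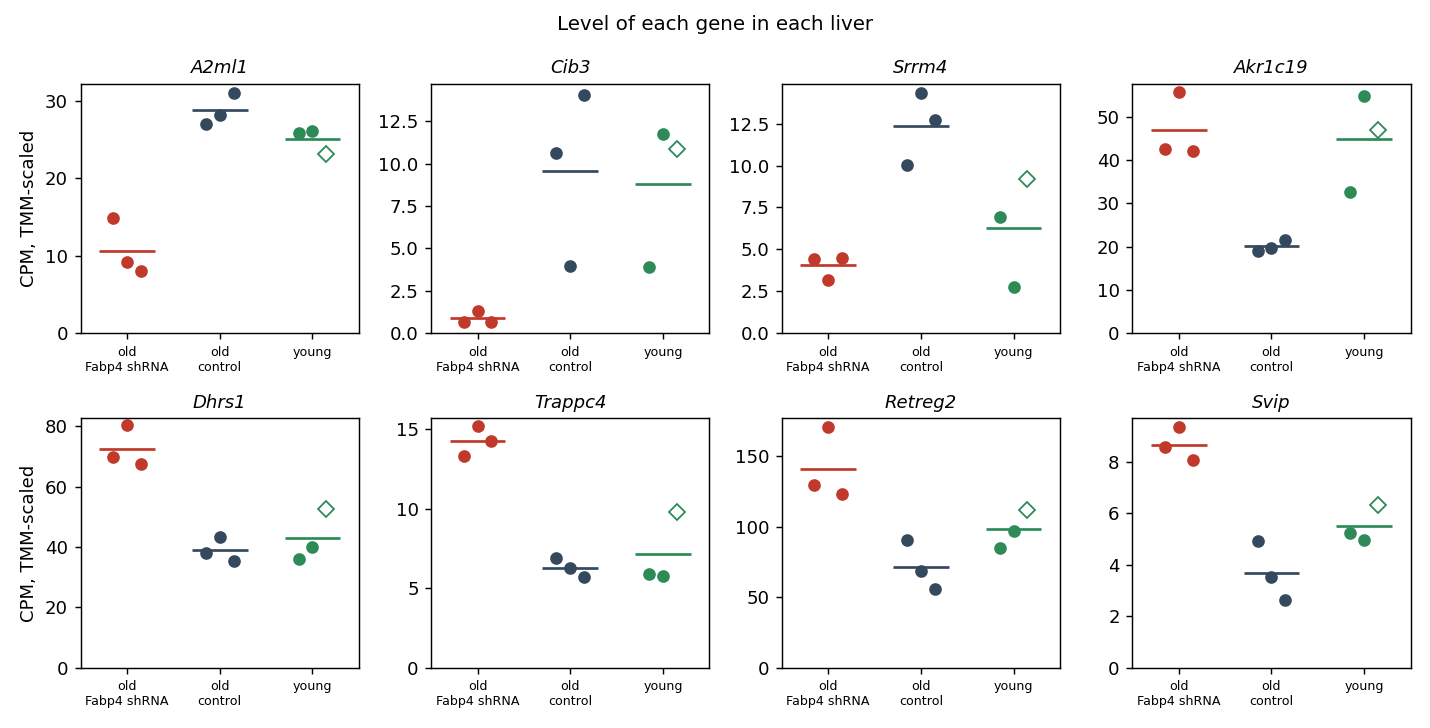
Level of each chosen gene in each of the 9 livers. The y axes are TMM-scaled CPM from 0, each point is 1 liver, lines are group means and the open diamond is the unnumbered young library. Libraries labelled Fabp4 shRNA lie below old control for A2ml1, Cib3 and Srrm4 and above it for the other 5 genes.

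Of the 8 genes, 3 were lower and 5 higher in libraries labelled Fabp4 shRNA, with no overlap with old control for any of them. Over all tested genes, 5.67% were lower and 6.02% higher without overlap, 11.7% in all. The choice used this contrast, so nothing is read from the members' count. In edgeR's quasi-likelihood test of the contrast, with Benjamini-Hochberg adjustment over 14025 genes, 0% of genes passed an adjusted p of 0.05, and the lowest adjusted p was 0.427. At an unadjusted p under 0.05, 3.27% of genes were higher and 3.48% lower (946 genes), and DESeq2 called 7 genes (0.0499%) and limma-voom 0. Sorted by p, the members held ranks 1, 2, 3, 6, 7, 9, 11 and 13. The genes with the smallest p among those not chosen were mt-Tw at rank 4 (-3.61 ± 0.70 on the log2 scale, edgeR standard error), Spp1 at rank 5 (-1.77 ± 0.36) and Elane at rank 8 (-2.84 ± 0.66). Svip at rank 13 was the last member, with Pltp (-1.13 ± 0.27) just behind it at rank 14. In whole tissue, fewer cells of a type and less RNA per cell cannot be told apart.

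A2ml1, the protease inhibitor relative, was 14.8, 9.19 and 7.98 CPM in replicates 1, 3 and 6 of libraries labelled Fabp4 shRNA, against 27.03, 28.2 and 31.1 CPM in old control replicates 1, 2 and 5. Young livers had 25.8 and 26.1 CPM in replicates 1 and 5 and 23.1 CPM in the unnumbered library. The 3 young values lay just under the old control range and well above the libraries labelled Fabp4 shRNA. On the log2 scale, libraries labelled Fabp4 shRNA minus old control was -1.43 ± 0.24 (edgeR, standard error). Against young liver it was -1.23 ± 0.24 for the libraries labelled Fabp4 shRNA and 0.20 ± 0.24 for old control. The recovered reads placed the unnumbered young liver at 26.3 CPM, beside the other young livers.

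Cib3, the EF-hand protein, was 0.670, 1.32 and 0.626 CPM in libraries labelled Fabp4 shRNA, from 11, 24 and 12 counts. Old control livers had 10.6, 3.97 and 14.0 CPM, and young livers 3.91 and 11.7 CPM in replicates 1 and 5 and 10.8 CPM in the unnumbered library. Young and old control livers covered almost the same range, each with 1 liver near 4 CPM and 2 livers above 10 CPM. Libraries labelled Fabp4 shRNA minus old control gave a log2 difference of -3.44 ± 0.57, the largest of the 8, and it was the least precise of them. Old control minus young was 0.11 ± 0.49. The recovered reads put the unnumbered young liver at 4.26 CPM, still above all 3 libraries labelled Fabp4 shRNA.

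Srrm4, the neuronal splicing factor, had a mean deposited FPKM, a level per length, of 0.449 in libraries labelled Fabp4 shRNA and 1.36 in old control, the FPKM of Retreg2, the highest of the 8 genes, being 45.4 in libraries labelled Fabp4 shRNA and 22.8 in old control. It was 4.45, 3.19 and 4.48 CPM in libraries labelled Fabp4 shRNA, against 10.0, 14.3 and 12.7 CPM in old control. Young livers spread across both, with 6.94 and 2.74 CPM in replicates 1 and 5 and 9.18 CPM in the unnumbered library, or 6.20 CPM with recovered reads. Young replicate 5 lay below every library labelled Fabp4 shRNA, while the other young livers lay between both old groups. Relative to old control the log2 difference was -1.61 ± 0.38. Relative to young liver it was -0.64 ± 0.38 for libraries labelled Fabp4 shRNA and 0.97 ± 0.38 for old control. An antisense gene, Srrm4os, overlaps Srrm4 and averaged 0.896 ± 0.863 CPM in libraries labelled Fabp4 shRNA and 0.586 ± 0.458 CPM in old control (SD, n = 3 each). Whether counting used strand is not given in the sources used here, so reads of Srrm4 and Srrm4os may be mixed. Of 10 neuronal markers, 3 passed the count filter. In libraries labelled Fabp4 shRNA 3 of the 10 (Tubb3, Elavl3 and Nefl) were at 0 throughout, against 6 in old control and 4 in young liver. Summed over the 10 markers, the level was 4.28 to 11.5 CPM in libraries labelled Fabp4 shRNA, 3.52 to 6.09 CPM in old control and 7.33 to 9.14 CPM in young liver. The old groups overlap in this sum. Most of it was Syt1, with 285 counts in libraries labelled Fabp4 shRNA, 178 in old control and 292 in young liver. The sum therefore says little about the other markers, and the cell source of Srrm4 was not tested.

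Akr1c19, the aldo-keto reductase, was 42.7, 55.8 and 42.1 CPM in libraries labelled Fabp4 shRNA, against 19.0, 19.6 and 21.5 CPM in old control. Young livers had 32.6 and 54.8 CPM in replicates 1 and 5 and 47.0 CPM in the unnumbered library. All 3 young counts lay above old control, and those of replicate 5 and the unnumbered library lay within the range of libraries labelled Fabp4 shRNA. The log2 difference between libraries labelled Fabp4 shRNA and old control was 1.23 ± 0.23. Against young liver it was 0.064 ± 0.22 for libraries labelled Fabp4 shRNA and -1.16 ± 0.23 for old control. The recovered reads gave 21.3 CPM under the unnumbered name, inside the old control range, so the value under that name depends on which deposited column is read. The young mean was 36.0 ± 16.7 CPM with these reads and 44.8 ± 11.3 CPM with the counts (SD, n = 3).

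Dhrs1, the short-chain dehydrogenase, was 70.0, 80.4 and 67.4 CPM in libraries labelled Fabp4 shRNA, against 37.9, 43.5 and 35.5 CPM in old control. Young livers had 36.2 and 39.9 CPM in replicates 1 and 5, both within the old control range, and 52.6 CPM in the unnumbered library, between both old groups. Libraries labelled Fabp4 shRNA minus old control came to a log2 difference of 0.90 ± 0.20, and old control minus young was -0.14 ± 0.20. With recovered reads the unnumbered young liver stood at 48.7 CPM, also between both old groups.

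Trappc4, the TRAPP subunit, was 13.3, 15.2 and 14.2 CPM in libraries labelled Fabp4 shRNA, against 6.90, 6.24 and 5.73 CPM in old control. Young replicates 1 and 5 had 5.90 and 5.79 CPM, within the old control range, and the unnumbered library 9.81 CPM. That library alone among the young livers lay between both old groups, and the recovered reads placed it at 3.20 CPM, below all old livers. The log2 difference of Trappc4 between both old groups was 1.18 ± 0.26, and old control minus young was -0.19 ± 0.26.

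Retreg2, the reticulon-like ER protein, was 129, 171 and 123 CPM in libraries labelled Fabp4 shRNA, against 90.5, 68.7 and 55.5 CPM in old control. Young livers had 85.0 and 97.1 CPM in replicates 1 and 5 and 112 CPM in the unnumbered library. Young replicate 1 lay in the upper part of the old control range, and the other young livers lay between both old groups. Both old groups differed by 0.98 ± 0.24 on the log2 scale. Against young liver it was 0.53 ± 0.23 for libraries labelled Fabp4 shRNA and -0.45 ± 0.23 for old control. The recovered reads gave 69.3 CPM for the unnumbered young liver, within the old control range.

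Svip, the ERAD inhibitor, was 8.59, 9.36 and 8.08 CPM in libraries labelled Fabp4 shRNA, against 4.93, 3.52 and 2.65 CPM in old control. Young livers had 5.24 and 4.95 CPM in replicates 1 and 5, just above the old control range, and 6.31 CPM in the unnumbered library, farther above it. All lay below every library labelled Fabp4 shRNA. The log2 difference between libraries labelled Fabp4 shRNA and old control was 1.23 ± 0.30. Against young liver it was 0.66 ± 0.29 for libraries labelled Fabp4 shRNA and -0.57 ± 0.30 for old control. Recovered reads gave 5.23 CPM for the unnumbered young liver.

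**Figure D2:**
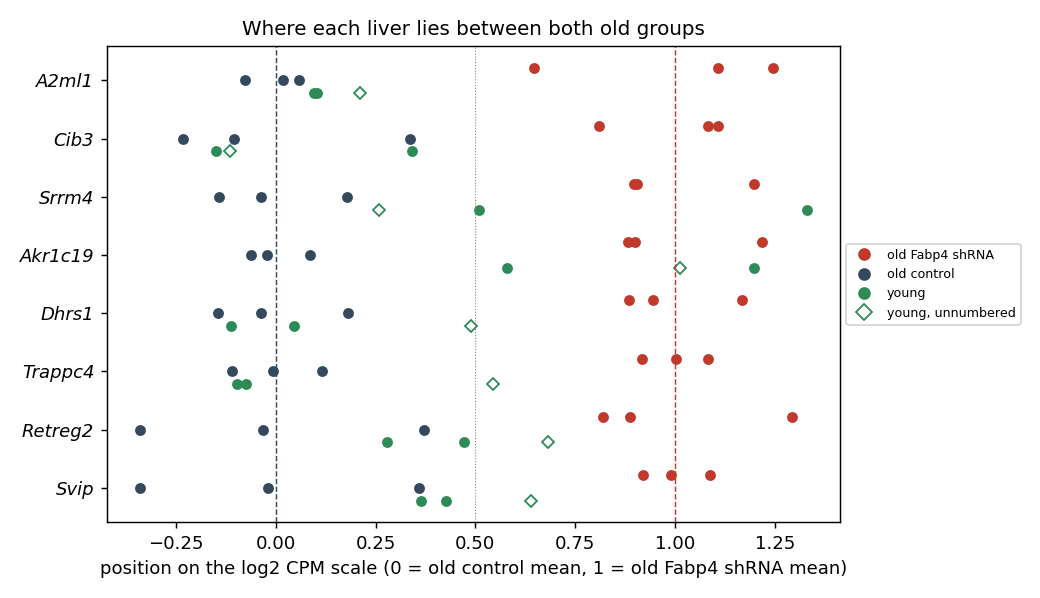
Place of each liver between both old groups. On the x axis, log2 CPM is rescaled per gene so that 0 is the old control mean and 1 the old Fabp4 shRNA mean, points are livers and open diamonds the unnumbered young library. Young means lie near 0 for A2ml1, Cib3, Dhrs1 and Trappc4, near the middle for Retreg2 and Svip, and toward 1 for Akr1c19 and Srrm4.

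The young livers took no single side. The young mean, measured on the log2 CPM scale from 0 at the old control mean to 1 at the mean of libraries labelled Fabp4 shRNA, was at 0.14 for A2ml1, 0.026 for Cib3, 0.14 for Dhrs1 and 0.12 for Trappc4. For Retreg2 and Svip it was at 0.48, midway between both groups. For Srrm4 it was at 0.70 and for Akr1c19 at 0.93. Thus 2 of the 8 young means lay nearer the libraries labelled Fabp4 shRNA and 6 nearer old control. The young mean was nearer the libraries labelled Fabp4 shRNA for 51.7% of all tested genes, and for 52.8% of the 1639 genes whose old groups do not overlap. Without the unnumbered library the count was again 2, with places of 0.92 for Srrm4, 0.89 for Akr1c19, 0.38 for Retreg2 and 0.40 for Svip. Leaving out old control replicate 1 or young replicate 1 made it 4, since Retreg2 and Svip crossed the middle. Without young replicate 5 the count stayed at 2, but Srrm4 moved to the old control side and Svip to that of libraries labelled Fabp4 shRNA, and without replicate 3 of libraries labelled Fabp4 shRNA Retreg2 crossed. Akr1c19 was nearer libraries labelled Fabp4 shRNA, and A2ml1, Cib3, Dhrs1 and Trappc4 nearer old control, under each of the 20 alternatives tried.

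Taken liver by liver, the 8 genes in 3 young livers gave 24 places. Of these, 14 lay between both old groups, 7 within the old control range, 2 within the range of libraries labelled Fabp4 shRNA and 1 beyond it. Genes chosen for a wide gap leave more room between the groups than others do. Among the 1639 genes whose old groups do not overlap, 14.5% of young values lay between, 25.5% within the old control range and 29.0% within that of libraries labelled Fabp4 shRNA.

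The mean of both old groups against young liver is a contrast that the choice of these genes did not use, and it was tested with edgeR over all genes. Called genes made up 0.0642% of all tested genes (9 genes, 0.0428% higher and 0.0214% lower in old liver). Of the 8 members 0 were called, their edgeR adjusted p lying between 0.239 and 0.962. Without adjustment 3 had p under 0.05, all lower in old than in young liver, against 5.37% of all genes lower, 5.44% higher and 10.8% in all. Cib3 stood at -1.61 ± 0.43 on the log2 scale (edgeR, unadjusted p = 0.00286, adjusted p = 0.239), with libraries labelled Fabp4 shRNA below young liver and old control not. Akr1c19 stood at -0.55 ± 0.19 (unadjusted p = 0.0127, adjusted p = 0.345), with old control below young liver and libraries labelled Fabp4 shRNA not. A2ml1 stood at -0.51 ± 0.20 (unadjusted p = 0.0245, adjusted p = 0.390), with libraries labelled Fabp4 shRNA below every young liver and old control above every one. Dhrs1 (0.31 ± 0.18), Trappc4 (0.40 ± 0.23), Srrm4 (0.16 ± 0.33), Retreg2 (0.036 ± 0.20) and Svip (0.043 ± 0.26) had unadjusted p from 0.104 to 0.870. DESeq2, which called 1.55% of all genes (218 genes), called Cib3 (adjusted p = 0.0296) and no other member. Limma-voom called 0.0357% of all genes and 0 members. The spread in this test includes the old livers whose closeness within groups favoured their choice, and that effect on the p-values was not tested.

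The unnumbered library moved several of these values. With recovered reads Trappc4 was 0.91 ± 0.24 (edgeR adjusted p = 0.0911) Akr1c19 -0.26 ± 0.24 (adjusted p = 0.611) and Srrm4 0.40 ± 0.30 (adjusted p = 0.507). Without the library Trappc4 was 0.68 ± 0.25 (adjusted p = 0.299), Srrm4 0.53 ± 0.36 (adjusted p = 0.568) and Dhrs1 0.47 ± 0.20 (adjusted p = 0.368). In both of these fits 0 of the 8 members were called. Dhrs1 was 0.20 without young replicate 1, and Srrm4 0.11 without old control replicate 2 and -0.19 without young replicate 5. Retreg2 and Svip, both near 0, changed sign when some single libraries were left out.

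**Figure D3:**
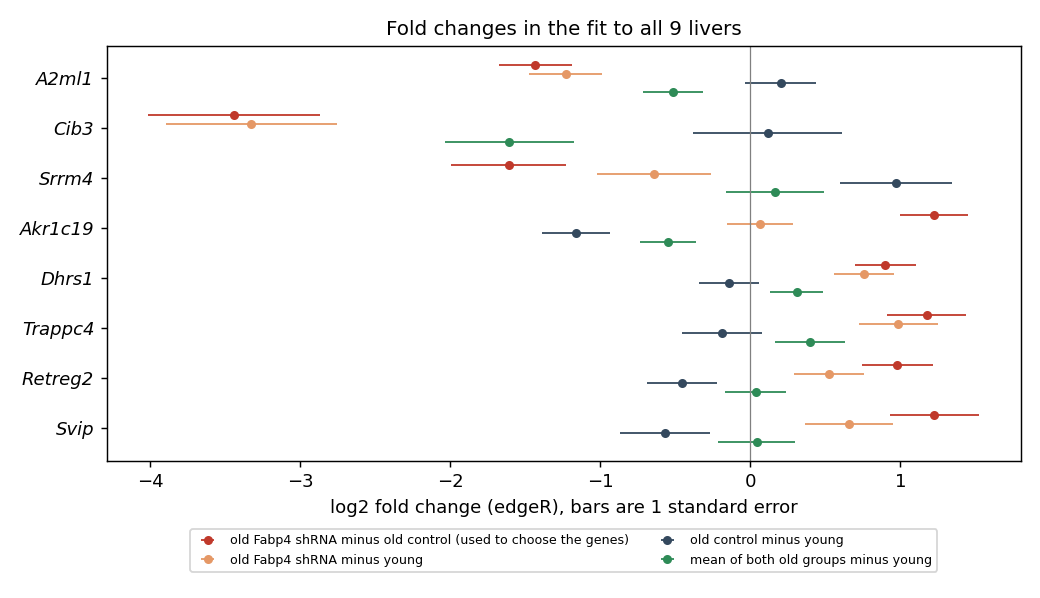
Log2 fold changes of the 8 genes (x axis, edgeR) in the fit to all 9 livers, with bars of 1 standard error. Old control minus young lies within 1 standard error of 0 for A2ml1, Cib3, Dhrs1 and Trappc4, and old Fabp4 shRNA minus young does so for Akr1c19. Old Fabp4 shRNA minus old control is drawn as the contrast that chose the genes, with no test.

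Levels of the members were correlated over the 9 livers after subtraction of group means, which removes the group difference and leaves 6 degrees of freedom. Pearson correlations of log2 CPM ran from -0.550 (Akr1c19 with Srrm4) to 0.892 (Retreg2 with Svip). Dhrs1 with Trappc4 followed at 0.823, and Cib3 with Akr1c19, whose directions between the old groups are opposite, at 0.767. These values use the count column of the unnumbered young library, which was the highest young liver there for Dhrs1, Trappc4, Retreg2 and Svip. With recovered reads it was the lowest young liver for Trappc4 and Retreg2, and the correlations were not recomputed with those reads. The share of counts from mitochondrial genes was 4.15% to 8.47% in libraries labelled Fabp4 shRNA, 4.42% to 14.5% in old control and 6.89% to 13.8% in young liver, and its part in the members' values was not tested.

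The genes with the most similar pattern were found by the Pearson correlation of log2 CPM over the 9 livers, without subtraction of group means, so that the points share the groups used in the choice and, again, the count column of the unnumbered library. Dhrs1 and Trappc4 had each other as nearest gene (0.974), and so did Retreg2 and Svip (0.975). For Dhrs1 the next were Tgfbrap1 (0.973) and Skiv2l2 (0.958), and for Trappc4 BC005624 (0.963) and Usp5 (0.962). For Retreg2 they were Cyb5b (0.972) and Ssrp1 (0.970), and for Svip Ssrp1 (0.956) and Rxra (0.956). A2ml1 was followed by Snx5 (0.944), Tpmt (0.933) and Tsen15 (0.931). Akr1c19 was followed by Snrpert (0.972), Gm8394 (0.946) and Eif3i (0.908). Srrm4 was followed by Ccdc130 (0.952), Sybu (0.922) and Tox2 (0.919), and Cib3 by Hebp2 (0.932), 1110006O24Rik (0.889) and Gm42690 (0.867).

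Relatives of each member were drawn from lists of its family, complex or pathway, 130 genes in 8 lists, of which 113 were tested. In edgeR 0 relatives were called in libraries labelled Fabp4 shRNA against old control (lowest adjusted p = 0.728), and DESeq2 and limma-voom also called 0. At an unadjusted p under 0.05, 6 relatives were higher and 2 lower, beside the shares of 3.27% and 3.48% over all genes. In old against young liver edgeR called 0 relatives, DESeq2 2, beside 1.55% of all genes, and limma-voom 0. At an unadjusted p under 0.05, 3 were higher and 2 lower, beside 5.44% and 5.37% of all genes.

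The thioester protein family of A2ml1 had a median log2 difference of -0.19 over 7 tested relatives between libraries labelled Fabp4 shRNA and old control, against a median of -0.013 over all genes. Its relatives with the smallest p were the murinoglobulin Mug2 at -0.45 ± 0.30 and complement C3 at 0.32 ± 0.32 (edgeR adjusted p = 0.825 and 0.900). For Cib3 the median over 4 tested relatives was 0.018, with Chp2 at -0.62 ± 0.67 and Cib2 at 0.20 ± 0.35. For Srrm4 the median over 13 relatives and splicing partners was -0.19. The splicing regulator Mbnl2 was 40.0 ± 1.30 CPM in libraries labelled Fabp4 shRNA and 57.6 ± 12.5 CPM in old control (SD, n = 3 each), a log2 difference of -0.53 ± 0.20 with an edgeR adjusted p of 0.728, and Srsf11 stood at -0.64 ± 0.31.

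The reductases related to Akr1c19 had a median log2 difference of 0.33 over 13 tested genes. Akr1c13, of the same cluster, averaged 57.8 ± 9.84 CPM in libraries labelled Fabp4 shRNA and 31.1 ± 9.27 CPM in old control (SD, n = 3 each). Its log2 difference was 0.90 ± 0.25 (edgeR unadjusted p = 0.00305, adjusted p = 0.728), without overlap between these groups. Akr1c14, a 3-alpha-hydroxysteroid dehydrogenase chosen after its values were seen, was 231 to 247 CPM in libraries labelled Fabp4 shRNA and 156 to 179 CPM in old control (0.49 ± 0.23, edgeR adjusted p = 0.741). Akr1b10, of another subfamily, lay the other way at -1.39 ± 0.55 (edgeR adjusted p = 0.728). Summed over the 16 reductases on the list, which does not hold Akr1c19, the level was 1425 to 1983 CPM in libraries labelled Fabp4 shRNA, 1274 to 1378 CPM in old control and 1551 to 2072 CPM in young liver. In this sum from the count columns, every library labelled Fabp4 shRNA and every young liver lay above old control. The sums of the other lists of relatives overlapped between the old groups, and 11.7% of all tested genes did not overlap between them. Akr1c6 alone gave 463 to 795 CPM of that sum in libraries labelled Fabp4 shRNA and 435 to 475 CPM in old control, with overlap. Of Akr1c19's transcript stretches of 75 bases, 3.73% also occurred in another gene, the pseudogene Marcksl1-ps4 within it, and none in another Akr1c gene.

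The short-chain dehydrogenases related to Dhrs1 had a median log2 difference of 0.030 over 18 tested genes, with Dhrs13 at 0.83 ± 0.35 and the lipid droplet enzyme Hsd17b11 at 0.57 ± 0.26 (both edgeR adjusted p = 0.728). The other TRAPP subunits and Rab1 genes had a median of 0.019 over 15 tested genes, with Rab1b at 0.39 ± 0.22 and Trappc12 at 0.29 ± 0.19 (edgeR adjusted p = 0.771 and 0.816). Receptors and adaptors of ER-phagy had a median of 0.15 over 16 tested genes, with the autophagosome protein Map1lc3a at 0.71 ± 0.28 and the receptor Tex264 at 0.35 ± 0.20 (edgeR adjusted p = 0.728 and 0.776). Genes of ERAD had a median of 0.045 over 27 tested genes. The VCP cofactor Nploc4 averaged 71.8 ± 22.5 CPM in libraries labelled Fabp4 shRNA and 40.7 ± 3.90 CPM in old control (SD, n = 3 each), at 0.82 ± 0.31, and the ubiquitin ligase Rnf5 stood at 0.88 ± 0.38 (both edgeR adjusted p = 0.728).

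**Figure D4:**
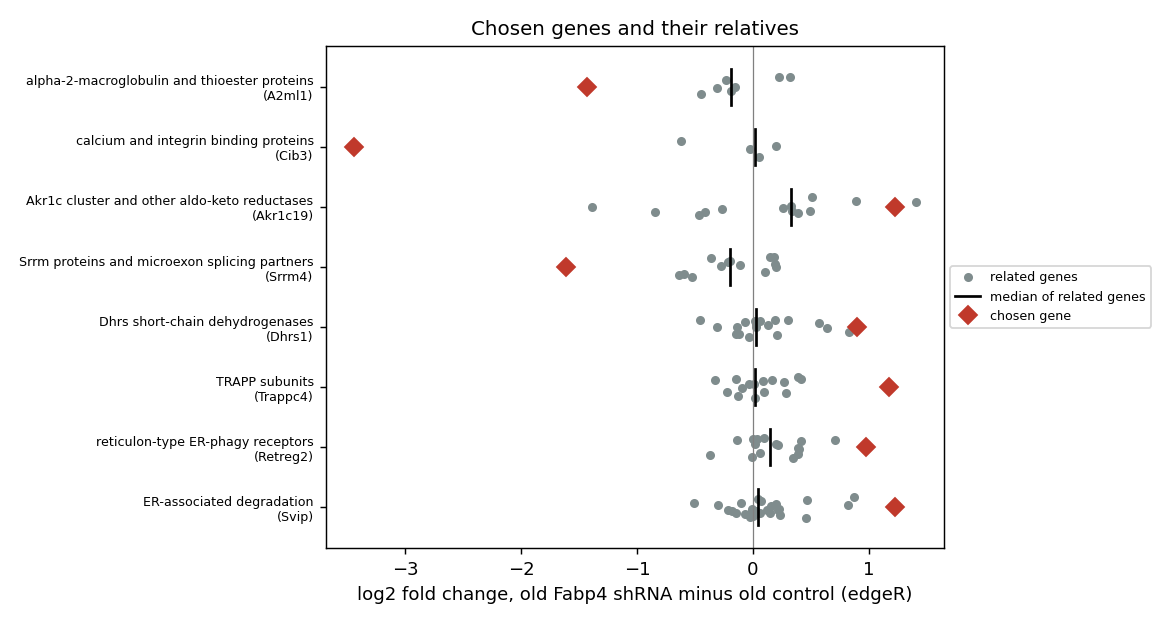
Log2 differences between libraries labelled Fabp4 shRNA and old control (x axis, edgeR) for each chosen gene (diamond) and the tested genes of its list (grey points, vertical bar at their median). List medians lie between -0.19 and 0.33, and the chosen genes, picked on this contrast, lie farther out than their list's median in every row.

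Dhrs1, Retreg2 and Trappc4 each begin beside a gene on the other strand. Nop9, a ribosome biogenesis gene, starts 3 bases from Dhrs1, Cnppd1 starts 67 bases from Retreg2, and the ribosomal protein gene Rps25 starts 461 bases from Trappc4 and overlaps it. Nop9 was 22.3, 15.4 and 24.7 CPM in libraries labelled Fabp4 shRNA, against 14.4, 18.7 and 21.4 CPM in old control. These overlapped, with a log2 difference of 0.19 ± 0.23 (edgeR adjusted p = 0.912). Cnppd1 was 81.8, 68.1 and 61.5 CPM in libraries labelled Fabp4 shRNA, against 77.6, 52.8 and 64.9 CPM in old control, also with overlap (0.11 ± 0.22, edgeR adjusted p = 0.953). Rps25 was 337, 182 and 304 CPM in libraries labelled Fabp4 shRNA, against 283, 396 and 425 CPM in old control (-0.42 ± 0.28, edgeR adjusted p = 0.816). Its sign is opposite to that of Trappc4. Of Trappc4's stretches of 75 bases, 16.1% also occur in Rps25 or Gm29666 on either strand, so counts of Trappc4 are uncertain if strand was not used. Differences between a member and its neighbour were not tested. Fam32a, which starts within 10000 bases of Cib3, stood at 0.064 ± 0.20 (edgeR adjusted p = 0.970).

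**Figure D5:**
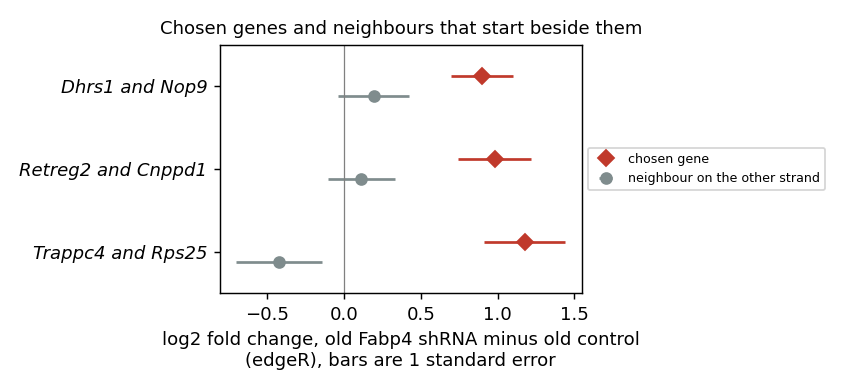
Log2 differences between libraries labelled Fabp4 shRNA and old control (x axis, edgeR, bars of 1 standard error) for 3 chosen genes and the gene that starts beside each on the other strand. The neighbours lie between -0.42 and 0.19, the chosen genes between 0.90 and 1.18.

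Markers of other cell types also differed between the old libraries. Of 15 lists of markers and states, 4 had summed levels that did not overlap between the old groups. Among all tested genes 5.67% were lower in libraries labelled Fabp4 shRNA without overlap, and the counts of markers below stand beside that share. Neutrophil markers summed to 6.11 to 16.3 CPM in libraries labelled Fabp4 shRNA, 19.7 to 65.3 CPM in old control and 13.2 to 29.4 CPM in young liver, with 6 of 9 tested markers lower without overlap. Ly6g, at 0 in all libraries labelled Fabp4 shRNA, had only 1 count in old control and 3 in young liver, too few to compare. Markers of recruited macrophages, Spp1 among them, summed to 83.8 to 141 CPM in libraries labelled Fabp4 shRNA, 190 to 262 CPM in old control and 107 to 166 CPM in young liver, with 4 of 10 lower without overlap. Spp1 (1373 counts in libraries labelled Fabp4 shRNA, 4013 in old control) and Lyz2 (2279 and 4039) gave most of this difference. Trem2 (67 and 69), Gpnmb (58 and 49) and Fabp5 (225 and 248) differed little. The log2 difference was above 0 for 1 of the 10. Bile duct cell markers, with Spp1 again among them and the highest, summed to 39.9 to 56.1 CPM in libraries labelled Fabp4 shRNA, 84.5 to 185 CPM in old control and 69.8 to 78.3 CPM in young liver, with 3 of 8 lower without overlap. In each of these sums all 3 libraries labelled Fabp4 shRNA lay below all 3 old control libraries, which is why these lists are named here. A2ml1, Cib3 and Srrm4 were chosen on the same split of libraries, so no likeness to them is read from it. Lymphocyte markers summed to 59.7 to 150 CPM in libraries labelled Fabp4 shRNA, 152 to 353 CPM in old control and 67.8 to 79.2 CPM in young liver, with 1 of 9 lower without overlap. In the last 3 lists 0 markers were at 0 in libraries labelled Fabp4 shRNA. Their part in the values of the 8 members was not tested.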

How the data were processed

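Liver RNA-seq of 9 mice was analysed. HISAT2 and GRCm38.p6 are named in the submitters' processing notes, while the sources used here give neither the counting program nor its strand setting. The count table deposited by the authors holds unscaled whole read counts per gene, and the FPKM table deposited by the authors holds counts scaled to gene length and library. The number of columns matching no sample or group was 0. The young column with an unmatched number was placed by its letter. Both tables were set side by side on 10483 genes with at least 20 counts: FPKM per count stayed constant for each gene (relative tolerance 0.001) for 100% of genes in 8 columns and for 0.229% in that one. Its reads were recovered from the FPKM, 100% of 17252 values being whole within 0.05 reads, and 226 genes could not be recovered.

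Genes were tested across all genes with edgeR 4.0.16 in R 4.3.3: filterByExpr, TMM scaling (factors 0.826 to 1.15), 1 mean per group, a robust quasi-likelihood fit with 6 residual degrees of freedom, a biological coefficient of variation of 0.320 and two-sided p-values adjusted by Benjamini-Hochberg at 0.05. CPM are TMM-scaled. Log2 CPM used a prior count of 2. A count of 3 stands for 0.175 to 0.211 CPM of total counts, for counting error only. Alternatives used DESeq2 1.42.0 and limma 3.58.1. The pipeline was tested on simulated data.

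Members, lists and tests were chosen with earlier results of these data known. The text names the 8 members, the relatives called or else the 2 with the smallest p between old groups, the 3 genes most correlated with each member, genes starting within 10000 bases, and the 3 genes of smallest p that were not chosen. The series' design text calls the samples independent biological replicates.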

Additional observations from a re-analysis of the deposited data

How the results depend on the processing

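The 20 alternatives were other scalings, filters and tools, the FPKM table, recovered reads, a replicate block and each library left out in turn. Of 160 recomputed differences of the 8 members between libraries labelled Fabp4 shRNA and old control, 160 kept their sign, but on log2 FPKM plus 1 Cib3 was -1.86, Srrm4 -0.70 and Svip 0.76, and with the replicate block A2ml1 was -0.92, each over 1.5 times smaller. Of 160 in old against young liver, 154 did. The 6 that turned sign were small: Srrm4 was -0.19 without young replicate 5, Retreg2 was -0.047 without old Fabp4 shRNA replicate 3, -0.067 without old control replicate 1 and -0.060 without young replicate 1, and Svip was -0.090 without old control replicate 1 and -0.027 without young replicate 5. With 1 library left out, Srrm4 ran to 0.53, Retreg2 to 0.13 and Svip to 0.14 at most. Cib3 was called in old against young liver without a filter on low counts (adjusted p = 0.0128) and by DESeq2 (0.0296), which made 1 member called in place of 0. The young mean was nearer the libraries labelled Fabp4 shRNA for 2 to 4 members when 1 library was left out, and Srrm4 left that side without young replicate 5.

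Genes called in old against young liver numbered 9 in edgeR, 226 with no filter, 218 in DESeq2, 5 in limma-voom, 61 and 83 with limma-trend on log2 FPKM plus 1 and plus 0.1, 105 with recovered reads and 79 with the replicate block. Leaving out 1 library gave 2 (without young replicate 1) to 74 (without old Fabp4 shRNA replicate 1), and 5 without old control replicate 1. Between the old groups, 0 in edgeR became 8 with no filter, 7 in DESeq2, 1 with either FPKM setting and 73 with the replicate block, and 0 to 1 with 1 library left out. The cause of these shifts was not tested. The replicate block used the animal numbers in the labels and left 1 residual degree of freedom. Livers with the same number had deviations from group means correlated at -0.046 to 0.112 over all genes. A batch that touches only some genes could not be seen in these values, and whether such livers share one was not tested. Scaling to total counts alone put the median over all genes at 0.24 (log2) in old against young liver, against 0.018 with TMM. Between the old groups the median was 0.13, against -0.013 with TMM. With 3 livers in a group and Cib3 at 11 to 24 counts, small differences could not be detected.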
